A study of Homo sapiens with 6 samples.

Results

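The transcript counts of 9 Krüppel-like factor (KLF) genes other than KLF1 were compared between nascent and steady-state RNA in K562 cells. The members are KLF2, KLF3, KLF4, KLF6, KLF9, KLF10, KLF11, KLF13 and KLF16. They were taken by symbol after the transcript identifiers of the count files had been joined to the GENCODE annotation, and all 9 were found among 37192 genes. The data are 4 total RNA-seq and 2 PRO-seq libraries of untreated K562 cells, a human leukemia line with erythroid features, grown in RPMI-1640 with serum. PRO-seq sequences the RNA held by engaged RNA polymerase and is taken here as the measure of transcription. The paper cautions that it strictly reports polymerase occupancy, which also depends on how fast the polymerase elongates. Total RNA-seq after rRNA removal measures the RNA present. The study made both kinds of library from one source of cells, so the spread between libraries does not cover cultures, and all p-values refer to that spread alone.

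KLF proteins bind GC-rich and CACCC elements in DNA through C2H2 zinc fingers at their C-terminal end. Their N-terminal parts differ and fall into classes that recruit different partners. KLF2, KLF4 and KLF6 bind acetyltransferases and mostly activate. KLF3 binds the corepressor CtBP. KLF9, KLF10, KLF11, KLF13 and KLF16 bind the corepressor SIN3A. KLF1, the erythroid activator of the β-globin gene, served here as the family's point of reference. Several KLF genes, KLF10 and KLF11 among them, were first described as genes that growth factors or cytokines switch on quickly.

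At the level of RNA per unit of transcription, the 6 KLF genes with ample counts lay below the median mRNA, and KLF6 lay lowest of these. KLF2 and KLF4 had few counts, and KLF13 was counted on a transcript that does not stand for its mRNA. KLF6 was transcribed about as much as KLF3 (132 ± 1.14 and 124 ± 1.68 TPM in PRO-seq, SD, n = 2). Their 95% Poisson intervals from summed counts overlapped, at 122 to 144 TPM for KLF6 and 119 to 129 TPM for KLF3. The RNA level of KLF6 was nevertheless 5.72 ± 0.905 TPM (SD, n = 4), against 31.8 ± 1.50 TPM for KLF3. TPM is counts per length, scaled to the same total in each library. In bulk samples such as these, fewer cells with an RNA and less RNA per cell cannot be told apart.

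**Figure D1:**
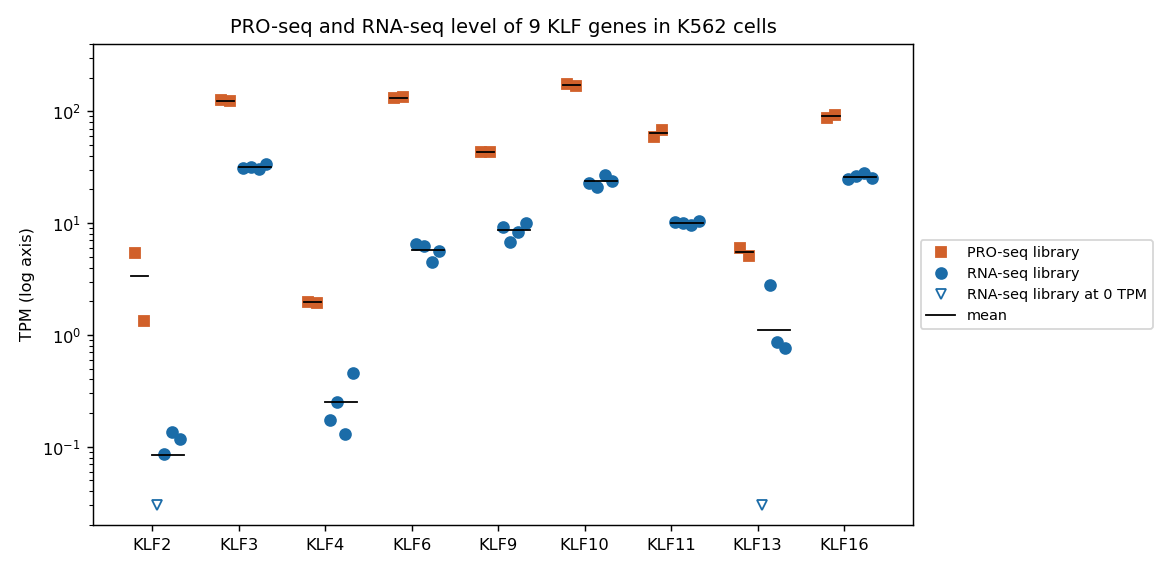
TPM (log axis) of the 9 KLF genes in each of 2 PRO-seq libraries (squares) and 4 RNA-seq libraries (circles), with bars at the means and open triangles for RNA-seq libraries at 0 TPM. KLF6 sits at 132 and 133 TPM in PRO-seq and between 4.47 and 6.52 TPM in RNA-seq, and KLF3 at 123 and 125 TPM against 30.4 to 33.8 TPM.

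The 3′ UTRs were read for the AU-rich pentamer ATTTA and the nonamer TTATTTATT, letters known from unstable mRNAs, on the transcribed strand only. A nonamer holds a pentamer. Among 8137 tested mRNAs with a 3′ UTR, 71.3% held a pentamer, with a median of 1.59 per kb, and 8.71% held a nonamer. All 9 KLF genes held a pentamer, KLF13 on its canonical transcript. The median tested 3′ UTR had 1241 bases, and all members but KLF4 (899 bases) had longer ones, which gives more room for a match. KLF16, the member with the longest half-life of those tested, was the one with a nonamer. The stretches below come from the GRCh37 genome and are shown because they carry these letters in the lowest (KLF6) and highest (KLF16) of the 6 members whose half-life was tested and in 3 of those between them. Capitals mark the nonamer in KLF16 and the pentamers in the others.
KLF6: tATTTAcaaatataacacaacaATTTAac
KLF11: taccagcATTTAcctttATTTAaatgatg
KLF9: agcagagtctgaATTTAtactaatcaaga
KLF3: ctgaatctctgaATTTAtatcatccaaaa
KLF16: gaatcctggcTTATTTATTttcctctgtc
They lie at chr10:3820983-3821011 (minus strand) for KLF6, chr2:10194066-10194094 (plus) for KLF11, chr9:73001981-73002009 (minus) for KLF9, chr4:38698999-38699027 (plus) for KLF3 and chr19:1853691-1853719 (minus) for KLF16. The KLF16 nonamer starts 749 bases after the stop codon, in a 3′ UTR of 2060 bases.

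The pentamer density was above the median mRNA in 7 of the 9 members and below it in KLF13 and KLF16. The density was 1.69 per kb in KLF6, above 51.5% of the tested mRNAs, and 2.58 per kb in KLF11, above 66.9% of them. KLF9 had 2.52, KLF2 had 2.42, KLF10 and KLF4 had 2.23 and KLF3 had 2.12 per kb. KLF16 had 0.971 per kb, above 38.6% of mRNAs, and KLF13, on its canonical transcript, had 0.893 per kb. Nonamers were more frequent in long 3′ UTRs: of 2781 tested mRNAs with at least 2000 bases, 17.8% held one. The median log2 half-life was -0.59 for the 709 mRNAs with a nonamer and 0.07 for the 7428 without. These are matches of letters, and no binding was measured.

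Libraries held 5732780 to 9002746 counts on transcription units (TUs) in RNA-seq, and 6993816 and 7245632 in PRO-seq. RNA-seq replicates 1 and 3 differed little beyond sampling (chi-square per degree of freedom 1.11), as did 2 and 4 (1.12), whereas the remaining pairings of RNA-seq libraries gave 1.74 to 2.11. All 10 erythroid and K562 markers that were matched exceeded 1 TPM in every RNA-seq library. In PRO-seq the globin genes HBE1 (0 TPM) and HBG2 (0.211 to 0.231 TPM) were at or near 0, against 3033 to 3196 and 5973 to 6572 TPM in RNA-seq. Of 8 matched markers of other cell types, 5 were under 1 TPM in all 4 RNA-seq libraries, while CD3D (107 to 112 TPM), LYZ (331 to 343 TPM) and COL1A2 (0.987 to 1.81 TPM) were not, and their part in the results below was not tested.

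The half-life of each TU was taken as the RNA-seq TPM over the PRO-seq TPM, from summed counts, and is given on the log2 scale relative to the median mRNA, so it has no unit of time. In the paper this ratio stands for half-life only at steady state, where synthesis and decay balance. The libraries used here are not those of the paper's main analyses. It relied there on earlier data, whose half-life estimates it found less variable and closer to published ones. Whether these genes were at steady state was not tested. TPM is scaled within each assay, and RNA-seq TPM lay under PRO-seq TPM at the median mRNA too. C1orf174, at a log2 half-life of 0, had a log2 TPM of 5.29 in RNA-seq and 5.93 in PRO-seq. The test took TUs past a minimum in each assay, 10 TPM for PRO-seq and 1 TPM for RNA-seq. Of the 9 KLF genes, 6 did (KLF3, KLF6, KLF9, KLF10, KLF11 and KLF16), and these minimums leave out genes with little transcription. All 6 were below the median mRNA and 0 above, by the edgeR quasi-likelihood test (Benjamini-Hochberg over 9929 TUs). Without the division by length, on CPM, KLF3, KLF6 and KLF9 stayed below, KLF10 and KLF11 no longer passed and KLF16 turned to above, with the values given beside the gene lengths. Among those TUs 50.0% were below and 40.4% above, and among the 8733 mRNAs alone 44.9% were below. The median of the 6 was -1.86, and they ranged from -3.86 to -1.16. The median over all tested TUs was -0.23, and the 10th and 90th percentiles of the mRNAs were -2.08 and 2.10. KLF6 alone of the 6 lay well outside that range, and KLF10 lay just outside it.

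**Figure D2:**
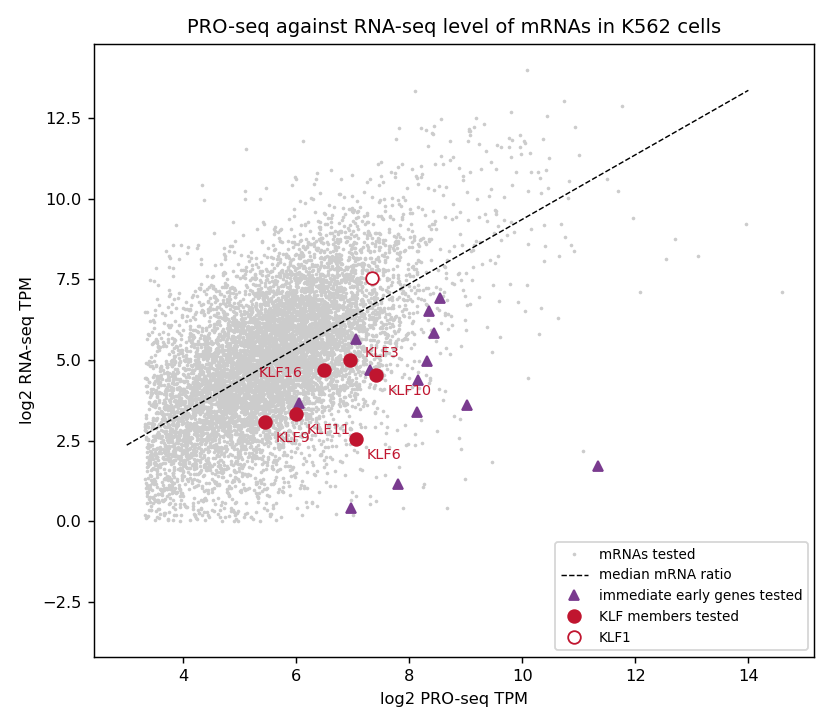
RNA-seq TPM against PRO-seq TPM (both log2) for the mRNAs tested (grey), with the dashed line at the median mRNA ratio, the 6 tested KLF genes, KLF1 and the 13 tested immediate early genes. The 6 KLF genes lie under the line, KLF6 farthest at a log2 half-life of -3.86, and KLF1 lies above it at 0.85.

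KLF6, an activator of the acetyltransferase-binding class that is made in most tissues, had RNA-seq TPM of 6.52, 6.23, 4.47 and 5.66 and PRO-seq TPM of 132 and 133. These rest on 361 RNA-seq and 573 PRO-seq counts. Its lowest RNA-seq library was replicate 3, and its RNA-seq values lay further below PRO-seq values than at the median mRNA in every library. Its log2 half-life was -3.86 (SE 0.12), 14.6-fold lower than the median mRNA, with an edgeR Benjamini-Hochberg adjusted p of 2.3e-24. It spanned -4.26 to -3.70 when each RNA-seq library was set against each PRO-seq library, 8 ratios in all. By level, KLF6 RNA stood above 55.4% of 18964 mRNAs, while its transcription stood above 94.8%. Its half-life was higher than that of 1.57% of the tested mRNAs. The counted transcript, ENST00000542957, lies at chr10:3818189-3827473 on the minus strand, has 3 exons and a 3′ UTR of 3556 bases, and holds 97.3% of the exon bases of the canonical transcript.

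KLF2 and KLF4, the other members of the activating class, were near the limit of these libraries. KLF2 is known for quiescence in T cells and for the endothelial response to flow, and KLF4 as a reprogramming factor. KLF2 had 0, 1, 1 and 1 counts in RNA-seq and 4 and 1 in PRO-seq, and KLF4 had 2, 3, 1 and 4 against 2 and 2. In TPM, KLF2 was at 0, 0.0864, 0.136 and 0.118 in RNA-seq and 5.41 and 1.33 in PRO-seq. KLF4 was at 0.175, 0.249, 0.130 and 0.455 TPM in RNA-seq and 1.97 and 1.94 in PRO-seq. RNA-seq values lay under PRO-seq values for both genes, as they did at the median mRNA, and the counts are so few that the ratios are wide. The log2 half-life was -4.78 for KLF2 (exact binomial 95% interval -7.47 to -2.42) and -2.33 for KLF4 (-4.12 to -0.20). These intervals cover counting error only. Both genes are compact, at chr19:16435637-16439496 (plus strand, ENST00000248071) and chr9:110247133-110252050 (minus strand, ENST00000374672).

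KLF3, the CtBP-binding repressor that KLF1 is known to activate in erythroid cells, had the highest RNA level of the 9. Its RNA-seq TPM were 31.0, 31.8, 30.4 and 33.8, and its PRO-seq TPM were 125 and 123. With 2416 RNA-seq and 2350 PRO-seq counts it was the most deeply measured member, and its libraries were nearly level within each assay. Its log2 half-life was -1.33 (SE 0.036), 2.51-fold lower than the median mRNA (edgeR, Benjamini-Hochberg adjusted p = 2.2e-20). The exact binomial interval from counting was -1.41 to -1.24. ENST00000261438 runs over chr4:38665820-38703138 on the plus strand with 6 exons and a 3′ UTR of 4254 bases. The antisense gene KLF3-AS1 shares 430 bp with it and had 16 RNA-seq and 341 PRO-seq counts. Sources used here do not give the strand setting of the counting, so reads in the shared stretch are uncertain. Of the 5594 exon bases of KLF3, 263 are also exon bases of KLF3-AS1, which is the length of the first KLF3 exon. By the paper's methods, PRO-seq counting left out the first 500 bp.

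The SIN3A-binding class held KLF10 and KLF11, both known as genes induced early by TGF-β. KLF10 was the most transcribed of the 9, with PRO-seq TPM of 174 and 167 and RNA-seq TPM of 23.0, 21.1, 26.7 and 23.7. KLF11 had PRO-seq TPM of 59.4 and 67.5 and RNA-seq TPM of 10.1, 10.1, 9.68 and 10.4. The pair differed in level in both assays, with KLF10 higher in every library. Their log2 half-lives lay close together, at -2.24 (SE 0.076) for KLF10 and -2.02 (SE 0.095) for KLF11. Both fell below the median mRNA (edgeR, Benjamini-Hochberg adjusted p = 1.2e-19 and 4.9e-17). The difference of KLF10 from KLF11 was -0.22 (SE 0.15), and the ranges of their within-library ratios in RNA-seq and PRO-seq overlapped. KLF11, ENST00000305883, lies at chr2:10183677-10194963 on the plus strand with 4 exons, and KLF10, ENST00000285407, at chr8:103661012-103667953 on the minus strand, also with 4 exons.

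KLF9, which glucocorticoids and thyroid hormone are known to induce, and KLF16 are the other SIN3A-binding members that were tested. KLF9 had RNA-seq TPM of 9.20, 6.79, 8.39 and 10.1 and PRO-seq TPM of 43.7 and 43.2, the lowest transcription of the 6. KLF16 had RNA-seq TPM of 24.6, 26.1, 28.1 and 25.1 and PRO-seq TPM of 86.6 and 93.2. For both genes RNA-seq values lay further below PRO-seq values than at the median mRNA. KLF9 varied more among the RNA-seq libraries than KLF16 did. The log2 half-life was -1.71 for KLF9 (SE 0.12, edgeR, Benjamini-Hochberg adjusted p = 6.6e-16) and -1.16 for KLF16 (SE 0.067, adjusted p = 3.5e-13). KLF9 lies at chr9:72999520-73029573 (minus strand, ENST00000377126) and KLF16 at chr19:1852398-1863578 (minus strand, ENST00000250916). KLF16 overlaps 2 antisense lncRNAs that had 0 or 1 counts.

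KLF13, known from late RANTES expression in T cells, could not be measured as an mRNA here. The counted transcript, ENST00000558921 at chr15:31619770-31727789 on the plus strand, has no defined coding sequence. Its 2 exons hold 440 bp in a span of 108020 bp, and they cover 223 of the 6845 exon bases of the canonical transcript, or 3.26%. It had 0, 5, 1 and 1 RNA-seq counts and 167 and 142 PRO-seq counts, or 0, 2.77, 0.870 and 0.758 TPM against 6.03 and 5.03 TPM. Replicate 2 held most of the RNA-seq counts. The log2 half-life of -1.60 therefore describes that transcript, and it was -2.89 without RNA-seq replicate 2.

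With a minimum of 1 summed count in each assay in place of the TPM minimums, all 9 could be tested among 20644 TUs. The median mRNA then lay 0.63 lower on the log2 scale, so each log2 half-life was 0.63 higher. Of the 9 KLF genes, 7 were below the median mRNA and 0 above by edgeR with Benjamini-Hochberg adjustment, beside 36.8% below and 32.1% above among all TUs in that fit. KLF2 was among the 7, at -4.15 (adjusted p = 0.0024 by edgeR). KLF4 was at -1.70 (adjusted p = 0.17) and KLF13 at -0.97 (adjusted p = 0.10) by the same edgeR test, and neither passed.

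**Figure D3:**
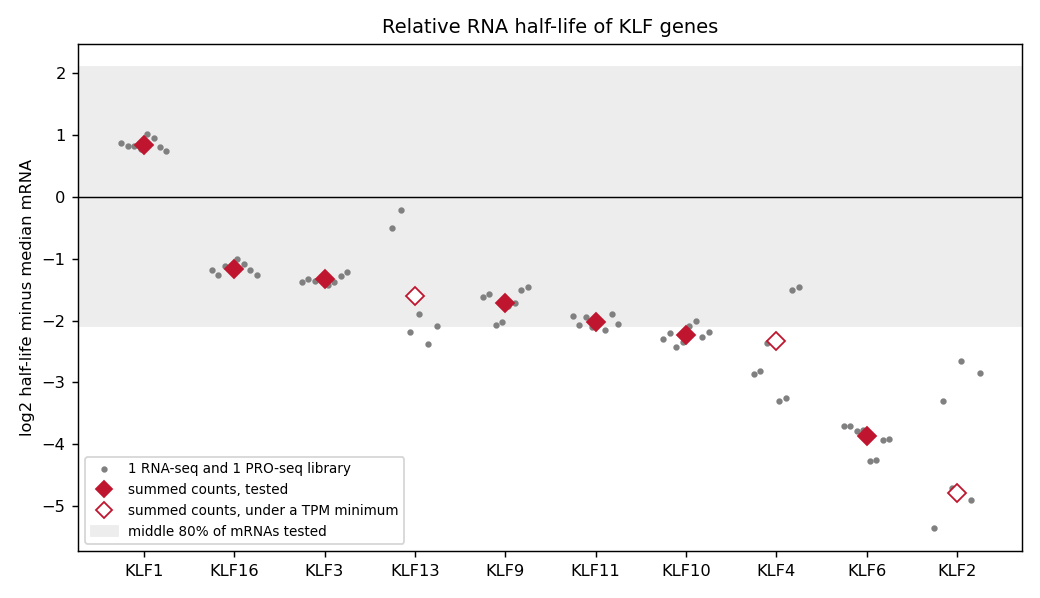
Log2 half-life relative to the median mRNA (no unit of time) of the 9 KLF genes and KLF1, with the value from summed counts (diamonds, open where a TPM minimum was missed) and the ratios of single RNA-seq to single PRO-seq libraries (dots). The grey band spans the 10th to 90th percentile of tested mRNAs. The 6 tested members stay under 0 in every such ratio, with summed values from -1.16 for KLF16 to -3.86 for KLF6, while KLF1 is at 0.85.

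The order of the members differed between the assays. In RNA-seq it ran KLF3, KLF16, KLF10, KLF11, KLF9, KLF6, KLF13, KLF4 and KLF2 from high to low. The ranges of KLF16 and KLF10, of KLF11 and KLF9, of KLF13 and KLF4 and of KLF4 and KLF2 overlapped. Within libraries, KLF16 exceeded KLF10 and KLF11 exceeded KLF9 in 4 of 4, whereas KLF13 exceeded KLF4 and KLF4 exceeded KLF2 in 3 of 4. In PRO-seq it ran KLF10, KLF6, KLF3, KLF16, KLF11, KLF9, KLF13, KLF2 and KLF4, and overlap was limited to KLF13 with KLF2 and KLF2 with KLF4. KLF6 thus stood second in transcription, though its counting interval overlapped that of KLF3, and sixth in RNA.

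Ratios between 2 genes of one library need no reference mRNA. KLF3 over KLF6 was 0.950 and 0.921 in the PRO-seq libraries and 4.75 to 6.79 in the RNA-seq libraries. The difference in log2 half-life between them was 2.54 (SE 0.12). Of the 15 pairs among the 6 tested members, 12 had RNA-seq ratios that did not overlap the PRO-seq ratios. The others were KLF3 with KLF16, KLF9 with KLF11 and KLF10 with KLF11. The share among pairs of other mRNAs was not counted, so 12 of 15 is not set apart from mRNAs at large. The log2 half-life of the tested mRNAs had an SD of 1.68. With 4 libraries against 2, an exact two-sided permutation test cannot go below p = 0.0667, so no pair could pass 0.05 by it.

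KLF1 differed from all 6. Its RNA-seq TPM lay between 178 and 206 and its PRO-seq TPM were 156 and 166, a log2 half-life of 0.85 (edgeR, Benjamini-Hochberg adjusted p = 1e-07). KLF1 was transcribed about as much as KLF10, with a PRO-seq ratio of 0.897 and 0.994, yet its RNA was 7.53 to 8.60 times as high. Against KLF6 the ratio was 1.19 and 1.25 in PRO-seq and 28.5 to 46.0 in RNA-seq. The log2 half-life of KLF1 exceeded that of KLF16 by 2.01 (SE 0.027), that of KLF3 by 2.17 (SE 0.095), that of KLF9 by 2.56 (SE 0.14), that of KLF11 by 2.86 (SE 0.083), that of KLF10 by 3.08 (SE 0.085) and that of KLF6 by 4.71 (SE 0.16). KLF1 was higher in 8 of 8 combinations of libraries for each of them.

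The weight of the members within the family changed accordingly. Summed over 18 KLF genes, the family held 287 to 316 TPM in RNA-seq and 806 and 823 TPM in PRO-seq. The 9 members made up 78.7% and 77.2% of the family's PRO-seq TPM and 34.4% to 38.0% of its RNA-seq TPM. KLF1 made up 19.4% and 20.2% in PRO-seq and 61.6% to 65.0% in RNA-seq. KLF6 went from 16.3% and 16.2% to between 1.42% and 2.24%, and KLF10 from 21.6% and 20.3% to between 7.33% and 8.44%.

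**Figure D4:**
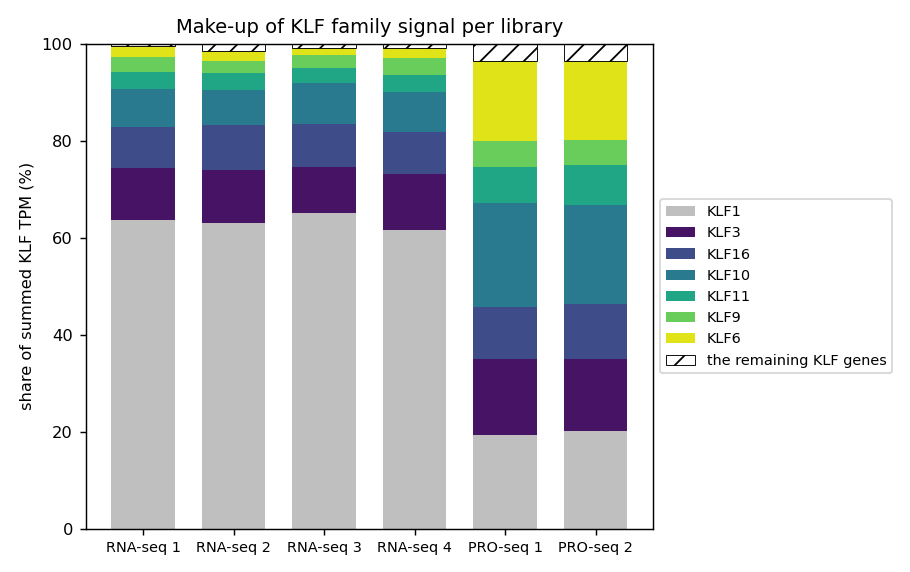
Share (%) of the TPM of 18 KLF genes in each library, stacked by gene, with the less abundant KLF genes as 1 hatched segment. KLF1 takes 61.6% to 65.0% of the RNA-seq columns and 19.4% and 20.2% of the PRO-seq columns, and the KLF6 and KLF10 segments shrink from PRO-seq to RNA-seq.

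Because RNA-seq TPM divides by exon length and PRO-seq TPM by the span less 1000 bp, the ratio of these lengths enters each half-life. It was 9.09 for the median tested mRNA, with a span of 29515 bp and exons of 3064 bp. It was below that in 8 of the 9 KLF genes, from 1.01 in KLF2 through 1.83 in KLF6 and 3.51 in KLF16 to 6.49 in KLF3, and 243 in KLF13. KLF1 had 1.10. Without any length correction, on CPM (counts scaled to the same library total), KLF16 turned to 0.23 above the median mRNA (edgeR, Benjamini-Hochberg adjusted p = 0.014), and KLF4 turned to 0.46. KLF10 (-0.061, adjusted p = 0.55) and KLF11 (-0.16, adjusted p = 0.14) no longer passed by edgeR. KLF3, KLF6 and KLF9 stayed below, at -0.82, -1.53 and -0.99.

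**Figure D5:**
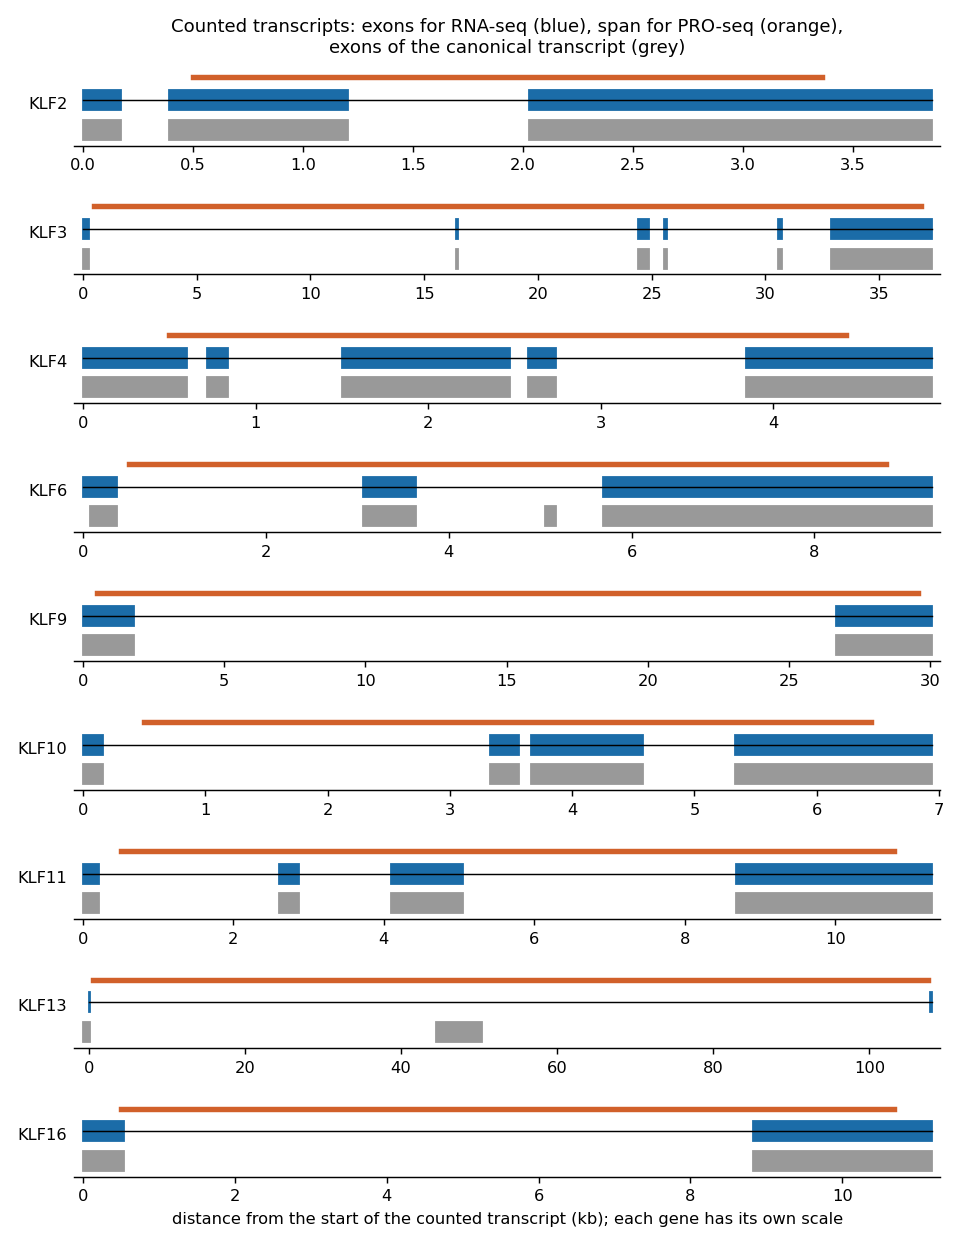
Exons counted for RNA-seq (blue), stretch counted for PRO-seq (orange) and exons of the canonical transcript (grey) of the 9 KLF genes, by distance from the start of the counted transcript (kb, own scale for each gene). Counted and canonical exons coincide in most genes, but KLF13 was counted on 440 bp of exons at the ends of a span of 108020 bp, and the counted KLF6 transcript lacks 1 internal exon.

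Apart from KLF1, the KLF genes that are not members were scarce, none of them above 0.603 TPM in any RNA-seq library. Of these 9, KLF1 was the one past the TPM minimums. With 1 summed count 7 were tested by edgeR, of which 1 (KLF1) was above and 5 below the median mRNA. Among all TUs in that fit 32.1% were above and 36.8% below. The SP genes, the sister family with the same kind of zinc fingers, lay on both sides of the median mRNA. Of 9, 8 were matched and 5 tested, with 1 above, 2 below and 2 that did not pass, and a median of -0.11. Among all tested TUs 40.4% were above and 50.0% below. SP2 was at -4.69 on 48 RNA-seq counts (edgeR, Benjamini-Hochberg adjusted p = 1.7e-21) and SP6 at -1.41. SP1 was at 0.01, SP4 at -0.11 and SP3 at 0.42, the last counted on a transcript that the annotation classes as a target of nonsense-mediated decay. Among 301 tested mRNAs of genes named ZNF, 265 were below the median mRNA and 23 above, with a median of -1.42. Of all 8733 tested mRNAs, 3923 were below and 3964 above.

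Partners of the KLF proteins were split about as all tested TUs were (50.0% below, 40.4% above). Of 9 corepressor and coactivator genes, all tested, 5 were below the median mRNA and 4 above by edgeR, with a median of -1.02. The lowest was CTBP2, a partner of KLF3, at -4.04, and the highest HDAC2, a deacetylase of the SIN3 complex, at 3.59 on a counted transcript of 502 exon bases. SIN3A, named after its value was seen, was at -1.34. Of 11 TGF-β receptor and SMAD genes, 9 were tested, with 5 below and 4 above, again near the shares of all TUs, and a median of -1.11. SMAD6, an inhibitory SMAD, was lowest at -3.10, and TGFBR1, a receptor for the signal that induces KLF10 and KLF11, highest at 1.18.

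Immediate early genes, which signals switch on without new protein synthesis, lay on one side. Of 18, 17 were matched and 13 tested, and 13 were below the median mRNA by edgeR with 0 above, beside 50.0% below and 40.4% above among all tested TUs. Their median was -2.69. They ran from EGR1 at -8.98 to IER5 at -0.76. With 1 summed count, 17 were tested, 15 below and 1 above (ATF3), beside 36.8% and 32.1% of all TUs in that fit. The 6 tested KLF genes, with a median of -1.86, lay within the span of this list. That span is wide. It also takes in the 10th percentile of the tested mRNAs (-2.08) and the median of the ZNF genes (-1.42), so lying within it shows no likeness.

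By the distance of log2 TPM over the 6 libraries, the mRNAs most like KLF6 among 8723 were ZNF385A (0.51), ITGB1BP2 (0.57) and SPRYD4 (0.58). Their log2 half-lives were -3.45, -3.65 and -3.71. Those most like KLF16, the highest of the tested members, were RBSN (0.18), THEM4 (0.19) and TRAPPC14 (0.20), with log2 half-lives of -1.09, -1.14 and -1.20. KLF16 thus had much closer neighbours than KLF6 had.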

How the data were processed

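For each of 4 total RNA-seq and 2 PRO-seq libraries the authors deposited raw counts per transcript, not normalized. Their methods name Cutadapt for trimming, HISAT2 for alignment to GRCh38 and HTSeq for counting on GENCODE transcripts, for PRO-seq without 500 bp at each end. Tool versions and strandedness are not given in the sources used. The files are labelled as counts of the longest transcript, whereas the methods name the most abundant one.

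Rows that name no TU held 66.5% to 68.6% of RNA-seq and 86.5% or 88.6% of PRO-seq records and were left out. Transcripts were joined by identifier to GENCODE lifted to GRCh37 (37339 of 42371, 88.1%), so lengths and coordinates are those of GRCh37. TPM used exon length for RNA-seq and the span less 1000 bp for PRO-seq. Each TU past the minimums (PRO-seq 10 TPM, RNA-seq 1 TPM) was tested against the median mRNA with edgeR 4.0.16 (R 4.3.3), by its quasi-likelihood test with TMM normalization, length offsets and Benjamini-Hochberg adjustment at 0.05. The SE of a half-life, or of a difference between half-lives, comes from the spread of libraries alone and can fall below counting error. Intervals at 95% are exact binomial for half-lives and exact Poisson for PRO-seq TPM, and cover counting error only. Reads that carry no molecular identifier may repeat a molecule. Replicate numbers were not used to pair libraries. Python 3.11.15 did the other steps. The edgeR fit alone was tested on simulated counts, with equal lengths for all TUs. It recovered 94.5% of 200 TUs changed by a log2 of 1, with 7 false calls. Length offsets, TPM and the motif steps were not tested in this way.

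Alternatives were the mean of library log2 TPM, 500 bp removed, other minimums, CPM without length, a pseudocount of 1 TPM, DESeq2 1.42.0 and library totals. Further ones were a 2-fold threshold, the median of all TUs as reference, summed close pairs of RNA-seq libraries, a replicate block and each library left out. The members and gene lists were chosen with earlier results of these data known. The text names all 9 members, every tested gene of the other KLF and SP lists, the highest and lowest tested gene of the other lists and the 3 mRNAs nearest to KLF6 and KLF16.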

Additional observations from a re-analysis of the deposited data

How the results depend on the processing

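Of the alternatives, the mean of library log2 TPM and the pseudocount gave values only, without a test of their own. KLF3, KLF6 and KLF9 stayed below the median mRNA in all 18 alternatives run for each, and past the threshold wherever a test was run. For KLF10, KLF11 and KLF16 this held in 17 of 18. The exception was CPM without length, which gave -0.061 for KLF10, -0.16 for KLF11 and 0.23 for KLF16, as well as -1.60 for KLF2, 0.46 for KLF4 and -6.33 for KLF13. With a pseudocount of 1 TPM, KLF2 was at -1.39 and KLF4 at -0.62. Adjusted p over the alternatives reached at most 3.1e-07 for KLF3, 3e-14 for KLF6, 2.8e-08 for KLF9 and, with a 2-fold difference tested, 0.023 for KLF16 (edgeR). TUs above and below the median mRNA numbered 6634 and 7596 with 1 summed count, and 2138 and 2898 with a 2-fold difference tested, beside 4010 and 4961. Leaving out 1 library gave 3872 to 4005 above and 4787 to 4947 below. It put KLF2 between -5.49 and -3.43, KLF4 between -2.71 and -2.17 and KLF13 between -2.89 and -1.12. The difference between replicates 1 and 2 in RNA-seq did not go with that in PRO-seq (correlation -0.016 over 9874 TUs). This is 1 contrast and cannot show that the numbers carry no pairing. In the replicate block, RNA-seq replicates 3 and 4 had no PRO-seq partner, so its assay effect came from replicates 1 and 2. The replicate block gave 3920 above and 4860 below, and KLF6 at -3.74 and KLF16 at -1.18 under it. DESeq2, library totals, close pairs and the block gave no value for KLF2, KLF4 and KLF13, which the TPM minimums leave out. The mean of library log2 TPM gave none for KLF2 and KLF13, which had an RNA-seq library at 0 TPM. Depth limits KLF2 and KLF4, which had 3 and 10 RNA-seq counts in all. KLF13 had 7, on 440 counted exon bases.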
